A study of Mus musculus with 2 samples.

Results

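The genes described here are 10 imprinted growth genes of the mouse, Igf2, Igf2r, Grb10, H19, Phlda2, Mest, Peg3, Plagl1, Sgce and Peg10. They were found as the rows of a table of 19559 genes whose symbol equals one of these names, and all 10 had a row. The table holds 2 samples of embryos of stage E3.75. In 1 of them intact blastocysts were sequenced, and in the other the inner cell mass (ICM), freed of its outer layer by immunosurgery. For both, the mothers were B6CBAF1 and the fathers CD-1, and the labels name no treatment and no difference other than the dissection. How many embryos were pooled was not given in the sources used here. Each library was made from amplified cDNA and sequenced as SOLiD fragments, and each gene has a read count and an RPKM, which is a read count divided by a gene length and scaled to a library total.

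An imprinted gene is transcribed mainly from the allele of 1 parent, as marked by DNA methylation or histone marks that were laid down in the egg or the sperm. Many paternally expressed imprinted genes favour growth of the fetus and placenta, and many maternally expressed ones restrain it. Igf2, Mest, Peg3, Plagl1, Sgce and Peg10 are known as paternally expressed, and Igf2r, H19, Phlda2 and Grb10 as maternally expressed in most tissues outside the brain. Several of these genes act in the placenta, which grows from the trophectoderm, the outer layer that immunosurgery removes. The values here are sums over both alleles, so they say nothing of which parent's copy was transcribed.

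Reads on listed genes came to 9271198 in whole blastocysts and 4125479 in the ICM. The 10 genes took 5876 and 2042 of them. With 1 library of each kind nothing was replicated, so that a test of the conditions was not possible. The intervals given are exact 95% intervals for counting error only, because amplified reads without molecular identifiers are not independent molecules. In such bulk samples, fewer cells of a type and less RNA per cell cannot be told apart. All 8 trophectoderm markers were at least 2-fold lower in the ICM library, with a summed RPKM of 1659 in whole blastocysts and 52.4 in the ICM, and Elf5 had no ICM read. Krt18 alone made up 1418 and 29.4 of these sums, and the other 7 markers summed to 240.96 and 22.96. The epiblast markers summed to 41.6 and 241.6 (6 of 7 at least 2-fold higher) and the primitive endoderm markers to 37.4 and 142.3 (5 of 6). Of the markers of other cells, 2 of 5 blood and immune genes (summed RPKM 5.03 and 0.848), 4 of 10 cumulus and uterine genes (44.3 and 3.87) and 1 of 6 fibroblast genes (0.140 and 7.49) had an RPKM of 1 or more in a library. Some of these were above Grb10 or Peg3 in level. Cyp11a1, a steroid synthesis gene that trophoblast cells of the placenta also express, had an RPKM of 21.9 in whole blastocysts and no ICM read, and the epithelial gene Wfdc2 had 20.5 and 1.08. Thy1 had 0.107 and 7.46, and Cyp19a1 none and 2.25. Fshr, Amh, Ltf, Hbb-b1, Lyz2, Col1a1 and Dcn had no read in either library.

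The length behind the deposited RPKM bears on every level below. Reads divided by RPKM give that length up to a single factor. Over 7818 genes with 50 or more reads in both libraries together, this length was within 1% of the last exon of a transcript in the GENCODE M21 annotation for 71.1% of genes, and within 1% of a whole transcript for 1.70%. The factor put the library total that RPKM was scaled to at about 45000000 reads for the whole blastocyst and 37900000 for the ICM. For 8 of the 10 imprinted growth genes the length was within 2% of a last exon. It was 1721 bases for Igf2r, whose longest transcript has 8887, and 3103 bases for Grb10, 3286 for Igf2, 4556 for Plagl1, 6397 for Peg10 and 1406 for Mest. For Sgce it was 282 bases and for Phlda2 268, so that 3 reads of these genes are worth an RPKM of 0.236 and 0.249 in whole blastocysts. For Peg3 it was 5775 bases, shorter than the annotated last exon of 7840 bases. For H19 it was 2616 bases, close to its whole gene span of 2615 bases. Whether reads outside the last exon were counted was not given in the sources used here.

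**Figure D1:**
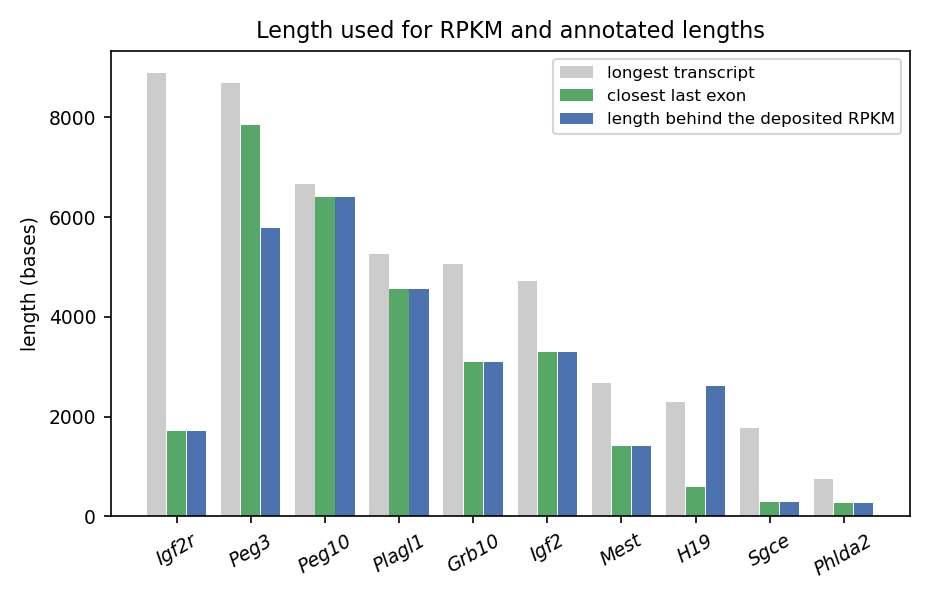
Length in bases of the longest annotated transcript (grey), of the annotated last exon closest to the length used (green) and of the length behind the deposited RPKM (blue) for each of the 10 genes, annotation GENCODE M21. Blue and green bars match for 8 genes, while Peg3 (5775 bases) and H19 (2616 bases) stand apart.

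Levels of different genes therefore compare reads per base of mostly last exons. They moved with that length over the 7818 genes with 50 or more reads in both libraries together. Of these, the 1063 genes with a length under 400 bases had a median RPKM of 15.6 in whole blastocysts. The 986 genes of 3200 bases or more had 3.09. The minimum of 50 reads demands a higher RPKM of a shorter gene, so part of this trend is built in. The ratio between the libraries is free of the length, which is the same in both columns of a gene.

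The counts are per gene and do not tell start sites apart. RefSeq gives Grb10 more than 1 start, and the windows before the starts differ in their CpG dinucleotides, the sites that carry imprinting methylation. The 250 bases before each start are printed here from the RefSeq promoter table of build GRCm38.p6, which is not the build of the read counts, for the 3 genes with the highest whole-blastocyst levels. CpG dinucleotides are in capitals. The windows are chr17:12769707-12769956 (minus strand) for Igf2r, chr11:12037421-12037670 (minus strand) for the upstream Grb10 start, chr11:12027972-12028221 (minus strand) for the downstream Grb10 start and chr7:6730420-6730669 (minus strand) for Peg3.
Igf2r: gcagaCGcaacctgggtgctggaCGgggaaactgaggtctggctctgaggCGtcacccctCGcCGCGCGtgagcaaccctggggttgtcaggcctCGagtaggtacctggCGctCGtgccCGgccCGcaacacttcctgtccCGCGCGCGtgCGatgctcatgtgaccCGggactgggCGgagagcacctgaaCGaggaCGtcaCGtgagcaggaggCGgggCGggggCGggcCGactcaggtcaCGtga
Grb10, upstream start: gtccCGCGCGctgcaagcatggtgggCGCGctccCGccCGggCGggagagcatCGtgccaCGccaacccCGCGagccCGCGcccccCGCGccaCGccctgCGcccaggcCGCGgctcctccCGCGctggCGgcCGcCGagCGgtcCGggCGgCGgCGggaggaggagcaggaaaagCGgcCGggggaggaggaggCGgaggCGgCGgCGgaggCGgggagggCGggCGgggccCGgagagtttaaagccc
Grb10, downstream start: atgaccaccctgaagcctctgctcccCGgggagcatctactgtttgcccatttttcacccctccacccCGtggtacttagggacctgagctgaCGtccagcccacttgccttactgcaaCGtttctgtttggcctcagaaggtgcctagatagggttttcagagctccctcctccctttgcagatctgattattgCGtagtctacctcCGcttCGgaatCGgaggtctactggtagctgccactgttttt
Peg3: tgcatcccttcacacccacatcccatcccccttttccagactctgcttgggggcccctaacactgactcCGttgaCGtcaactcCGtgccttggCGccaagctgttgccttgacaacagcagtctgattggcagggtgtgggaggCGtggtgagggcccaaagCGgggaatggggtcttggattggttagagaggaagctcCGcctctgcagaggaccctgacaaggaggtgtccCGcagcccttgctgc
The upstream Grb10 window held 40 CpGs, more than 98.7% of all 32851 promoter windows of the same length, and the downstream one held 8. The Igf2r window held 27, more than 91.4% of windows, and the Peg3 window 8, more than 57.0%. The median window held 6. Of the 10 genes, 7 had windows in that table (13 windows in all), and H19, Sgce and Peg10 had none. The hexamer TGCCGC, which the imprint-protecting protein ZFP57 binds when methylated, was searched on both strands. It stood in 3 of the 13 windows, the 2 overlapping windows of the downstream Mest start and that of Plagl1, compared with 8.68% of all windows. The YY1 motif GCCATNTT, searched likewise, stood in none of the 13 and in 3.91% of all. A match describes letters only.

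Differences are given as log2((ICM RPKM + 1)/(whole-blastocyst RPKM + 1)), a scale that understates the change of low genes, and ratios as plain ratios of RPKM. A gene was counted as measured where either library gave an RPKM of at least 1. This held for 6 of the 10, all of them through the whole blastocyst and 3 of them (Igf2r, Grb10 and Igf2) also through the ICM. Peg3, Plagl1 and Peg10 were measured only through the whole blastocyst, which favours lower values by construction. Mest, Sgce, H19 and Phlda2 did not reach an RPKM of 1 in either library. Of the 6 measured genes, 2 were at least 2-fold lower in the ICM, Peg3 and Grb10, where 44.0% of all 8981 measured genes were. None was at least 2-fold higher, where 8.96% of all were. The median difference of the 6 was -0.74, compared with -0.84 over all measured genes. Most genes were lower in the ICM, and the median shift was -0.66 over the 3013 genes that reached an RPKM of 5 in each library. Relative to that shift, Peg3 alone of the 6 was at least 2-fold lower (20.5% of all measured genes) and none was at least 2-fold higher (16.9%). On this scale 3 of the 6 lay on each side of the shift, with Igf2 only 0.02 above it. The pseudocount pulls low genes towards no difference, so that centring on the shift moves them up.

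**Figure D2:**
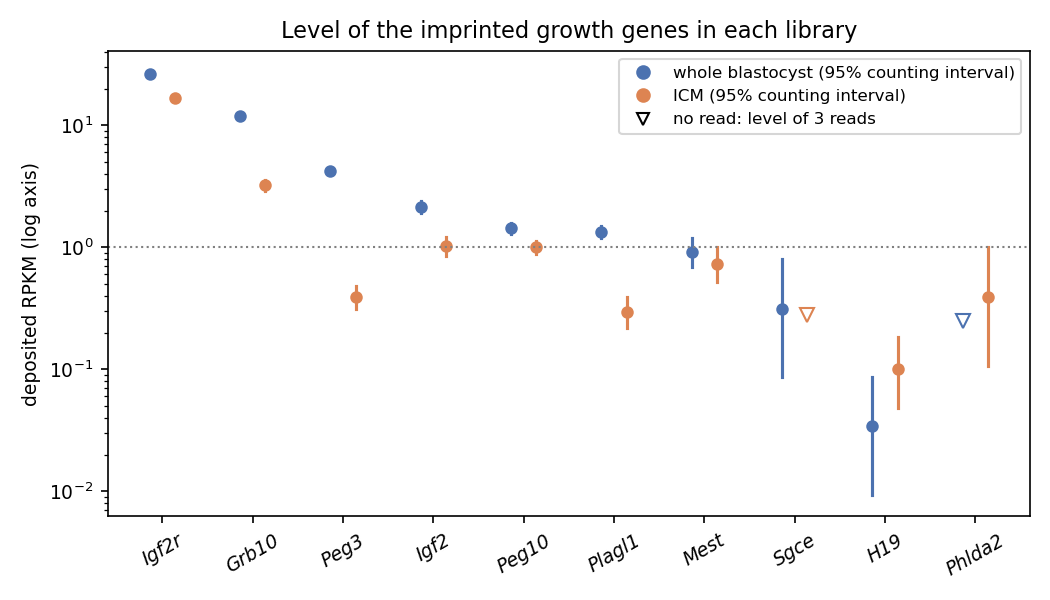
Deposited RPKM on a log axis of the 10 genes in whole blastocysts (blue) and the ICM (orange), 1 library each, with 95% counting intervals, and with open triangles at the level of 3 reads where a library had no read. The dotted line marks an RPKM of 1, above which Igf2r (26.3 and 16.9) and Grb10 (12.0 and 3.22) stand in both libraries, whereas Peg3 goes from 4.21 to 0.393.

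Among the 3 genes of insulin-like growth factor signalling, the clearance receptor gene Igf2r and the adaptor gene Grb10 were well above the ligand gene Igf2. Igf2 encodes the fetal growth factor IGF2. It had 316 reads and an RPKM of 2.14 in whole blastocysts, and 127 reads and an RPKM of 1.02 in the ICM. The ICM level was lower, at a ratio of 0.477 (0.385 to 0.588). The difference of -0.64 lies at the overall shift (0.02 relative to it) with the pseudocount of 1. The plain ratio lies below that shift written as a ratio (0.634), which itself was taken with the pseudocount. Reads of the same-strand gene model Gm49394 could stand in the Igf2 row, because it covers 3284 of the 3287 bases of the Igf2 last exon. No exon of any other gene, on either strand, is annotated over that last exon. An overlap with the antisense gene Igf2as could therefore lie only outside it. Igf2as had 135 and 8 reads (RPKM 0.946 and 0.0666), a ratio of 0.0703 (0.0298 to 0.143). Use of strand in counting was not given in the sources used here.

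Igf2r encodes the cation-independent mannose 6-phosphate receptor, which takes IGF2 up for breakdown in lysosomes and sorts lysosomal enzymes. It was the highest of the 10 in both libraries. The whole blastocyst had 2034 reads and an RPKM of 26.3 (25.1 to 27.4), above 92.6% of all listed genes, and the ICM had 1104 reads and an RPKM of 16.9 (15.9 to 17.96), above 93.6%. The ratio was 0.644 (0.598 to 0.694) and the difference -0.61, which is 0.05 relative to the shift. Its place among the genes of a library was close in both. Airn, the antisense RNA that silences the paternal Igf2r allele in later tissues, had 192 and 9 reads, an RPKM of 1.15 and 0.0642 and a ratio of 0.0556 (0.0251 to 0.108). No annotated exon of another gene lies over the last exon of Igf2r.

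Grb10 encodes an adaptor that binds the insulin and IGF1 receptors and dampens their signal. It was second in level in both libraries, with 1681 reads and an RPKM of 12.0 (11.5 to 12.6) in whole blastocysts and 379 reads and an RPKM of 3.22 (2.91 to 3.56) in the ICM. The ICM level was lower 3.74-fold (3.34 to 4.19), or -1.63 on the log2 scale. Against the shift this was -0.97, short of 2-fold. Its neighbour Ddc, the aromatic amino acid decarboxylase gene, which is imprinted in the heart, went the other way, from 14 to 342 reads and from an RPKM of 0.751 to 21.8 (29.0-fold higher, 17.05 to 53.6).

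H19 and Phlda2, maternally expressed genes known to restrain growth, did not reach an RPKM of 1 in either library. H19, a long noncoding RNA that shares enhancers with Igf2, had 4 reads in whole blastocysts and 10 in the ICM, an RPKM of 0.0340 and 0.101. The ratio of 2.97 had an interval from 0.856 to 12.96, so no difference was detectable at this depth. Phlda2, which encodes a pleckstrin homology domain protein of the placenta, had no read in whole blastocysts and 4 in the ICM, an RPKM of 0.394 (0.107 to 1.01). A whole-blastocyst count of 0 allows an RPKM of up to 0.249 by a floor of 3 reads. Here too the interval of the ratio, with a lower bound of 0.784, includes no difference.

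Peg3 had the lowest ratio of the 8 imprinted growth genes with reads in both libraries. It encodes a large zinc finger protein that is abundant in placenta and brain. The whole blastocyst had 1094 reads and an RPKM of 4.21 (3.97 to 4.47), the third of the 10, and the ICM had 86 reads and an RPKM of 0.393 (0.314 to 0.485). The level in the ICM was lower 10.7-fold (8.60 to 13.5). The difference of -1.90, or -1.25 relative to the shift, was past 2-fold either way. Its neighbours Usp29 (36 and 0 reads) and Zim1 (none in either) were low.

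Plagl1 encodes a zinc finger transcription factor that regulates other imprinted genes. It had 274 reads and an RPKM of 1.34 in whole blastocysts, and 51 reads and an RPKM of 0.295 in the ICM. The plain ratio was 4.53-fold lower (3.35 to 6.23) and so larger than that of Grb10, but the difference of -0.85 did not reach 2-fold on the scale with the pseudocount of 1. With pseudocounts of 0.5 and 0.1 the difference was -1.21 and -1.86. Its non-imprinted relatives Plag1 and Plagl2, zinc finger genes of the same family, were low in the ICM as well. Plag1 had 192 and 13 reads (12.4-fold lower, 7.105 to 23.8) and Plagl2 805 and 67 (10.1-fold lower, 7.88 to 13.2).

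Peg10 and Sgce lie head to head and share a methylated start region. Peg10 derives from a retrotransposon and is needed for the placenta. It had 411 reads and an RPKM of 1.43 in whole blastocysts, and 242 reads and an RPKM of 0.998 in the ICM, a ratio of 0.699 (0.594 to 0.821) and a difference of -0.28. Relative to the shift it was 0.38, the highest of the 6 measured genes. Sgce, the epsilon-sarcoglycan gene, had 4 reads in whole blastocysts (RPKM 0.315, 0.0859 to 0.807) and none in the ICM, which allows an RPKM of up to 0.281 by a floor of 3 reads. The ratio had an upper bound of 1.80, so the Sgce difference was not detectable. On the other side of Sgce, the neighbour Casd1 had 178 and 17 reads (8.82-fold lower, 5.36 to 15.5), and Ppp1r9a, beyond Peg10, had 718 and none (at least 164-fold lower by the exact limit, 202-fold by the floor of 3 reads).

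Mest encodes an enzyme of the alpha/beta hydrolase fold. It had 58 reads and an RPKM of 0.917 in whole blastocysts, and 39 reads and an RPKM of 0.732 in the ICM, at a ratio of 0.798 (0.518 to 1.22) that includes no difference. Copg2, a coatomer gene on the opposite strand, overlaps 909 of the 1411 bases of the Mest last exon, so the reads of the pair cannot be told apart unless strand was used. The Copg2 row had 147 and 3 reads, an RPKM of 5.67 and 0.137 (41.3-fold lower, 13.9 to 202), an interval that does not overlap that of Mest (1.25-fold lower, 0.821 to 1.93).

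**Figure D3:**
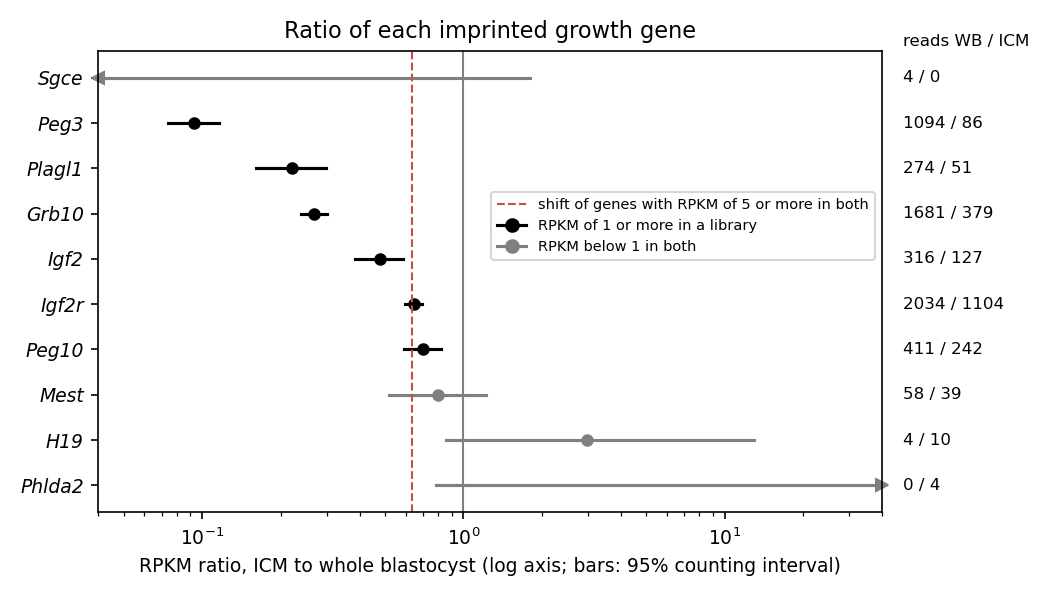
Ratio of ICM to whole-blastocyst RPKM (log axis) for the 10 genes with 95% counting intervals, arrows where an interval runs on, and the reads in whole blastocysts (WB) and the ICM at the right. Peg3, Plagl1, Grb10 and Igf2 (0.477) lie to the left of the dashed line of the overall shift (-0.66 on the log2 scale), Igf2r (0.644) and Peg10 (0.699) have intervals that span it, and grey marks genes under an RPKM of 1 in both libraries. The line was taken with the pseudocount of 1, whereas the ratios drawn are plain, so places near it are approximate.

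In the order of levels in whole blastocysts, Igf2r, Grb10, Peg3 and Igf2 each lay above the next gene by more than counting error. Peg10 (1.43) and Plagl1 (1.34) did not differ beyond it. Mest, Sgce and H19 followed in steps beyond counting error, and H19 and Phlda2 did not differ. In the ICM, Igf2r and Grb10 again led. Igf2 and Peg10, Peg10 and Mest, Mest and Phlda2, Phlda2 and Peg3, and Peg3 and Plagl1 were neighbours that did not differ beyond counting error. Peg3 moved from the third place to the seventh. These orders hold for the deposited lengths.

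The genes most like Igf2r over the 2 libraries, by the Euclidean distance of log2(RPKM + 1), were Bxdc2 (25.8 and 16.9), Ndfip2 (26.9 and 16.8) and Acbd3 (25.9 and 16.5), at distances of 0.025, 0.035 and 0.043. Those most like Grb10 were Fam118b (11.8 and 3.20), Bnip2 (11.6 and 3.26) and Arl5a (12.6 and 3.24), at 0.029, 0.056 and 0.059. With 2 points per gene this is a likeness of level and ratio only.

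The trophectoderm markers were lower in the ICM together with Peg3, Plagl1 and Grb10, with the levels given above. So were Cyp11a1 and Wfdc2 of the cumulus and uterine list, whereas Cyp19a1 of that list went the other way (0 and 91 reads). The part of trophectoderm or of cumulus and uterine cells in these ratios was not tested. The ICM retained 9.33% of the whole-blastocyst RPKM for Peg3, 22.1% for Plagl1 and 26.8% for Grb10. Single trophectoderm markers ranged from none of it for Elf5 and 2.08% for Krt18 to 14.3% for Tfap2c, with Cdx2 at 7.77%, Eomes at 9.01% and Gata3 at 11.1%. Peg3 lay within the range of these markers, and Plagl1 and Grb10 lay above it. The rest of the measured imprinted growth genes lay further above it, Igf2 at 47.7%, Igf2r at 64.4% and Peg10 at 69.9%. The markers summed without Krt18 retained 9.53%, and 3.16% with it.

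Other imprinted genes were compared in lists by the allele known to be expressed. Of 24 paternally expressed genes in the table, 13 were measured. Of these, 6 were at least 2-fold lower in the ICM and 2 at least 2-fold higher, where 44.0% and 8.96% of all measured genes were. Relative to the shift 1 was lower and 4 were higher (20.5% and 16.9% of all). The median of the 13 was -0.92. The most abundant were Gab1, a docking adaptor (32.3 and 15.3), the amino acid transporter gene Slc38a4 (27.4 and 11.5) and the Polycomb-related gene Sfmbt2 (21.95 and 8.41). These 3, whose imprint in the placenta rests on a histone mark from the oocyte, had differences of -1.03, -1.18 and -1.29, and none of the 3 was past 2-fold relative to the shift. Xist, the RNA that coats the inactive X chromosome, went from 14.2 to 1.41 (10.1-fold lower, 6.25 to 17.4). Snrpn and Snurf, which share a transcript and had identical counts (103 and 183 reads), went from 2.95 to 6.23. Both are among the 4 higher genes relative to the shift, so that count holds the same reads again. The 2 higher genes, named after their values were seen, were the retrotransposon-derived Rtl1 (3 and 221 reads, ratio 87.4, 29.5 to 427) and the splicing factor gene Zrsr1 (99 and 406 reads, ratio 4.87, 3.90 to 6.13). Both were measured only through the ICM, which favours higher values by construction. Rtl1 and Peg10 derive from the same family of retrotransposons, and their ratios were 87.4 and 0.699.

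Of 23 maternally expressed genes in the table, 8 were measured, 6 of them only through the whole blastocyst, which favours lower values by construction. Of the 8, 7 were at least 2-fold lower in the ICM, where 44.0% of all measured genes were. Relative to the shift 4 were lower, where 20.5% of all were. None was at least 2-fold higher, and the median was -1.53. Osbpl5, a lipid transfer protein gene, had 350 reads in whole blastocysts but lacked any in the ICM (at least 79.5-fold lower by the exact limit, 98.3-fold by the floor). Tssc4 had 107 and 2 reads (45.1-fold lower, 12.2 to 377) and the ubiquitin ligase gene Ube3a 812 and 253 (2.70-fold lower, 2.34 to 3.13). Osbpl5 and Tssc4 lie in the imprinted domain of Phlda2, as do Cd81 (37 and 2 reads) and Slc22a18 (14 and 0), whereas Nap1l4 of the same region, next to Phlda2, had 864 and 835 reads (RPKM 18.1 and 20.8). Cdkn1c of that domain, the gene of a cyclin-dependent kinase inhibitor that restrains growth, went the other way, with no read in whole blastocysts and 19 in the ICM (at least 5.54-fold higher by the exact limit, 7.52-fold by the floor). It did not count as measured, at an ICM RPKM of 0.736. The long noncoding RNA Kcnq1ot1, also of the domain, had 8976 and 5336 reads, a ratio of 0.706 (0.682 to 0.730). The exception among the 8 was Commd1, at 9.93 and 10.7 (ratio 1.08, 0.850 to 1.38).

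Of 19 neighbours of the 10 genes in the table, 9 were measured. Of these, 7 were measured only through the whole blastocyst, which favours lower values by construction. These 7 passed the 2-fold limit downwards in the ICM, where 44.0% of all measured genes did. After centring on the shift 2 of them did, where 20.5% of all did. Another 1, Ddc, measured only through the ICM, passed the limit upwards, where 8.96% of all did.

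**Figure D4:**
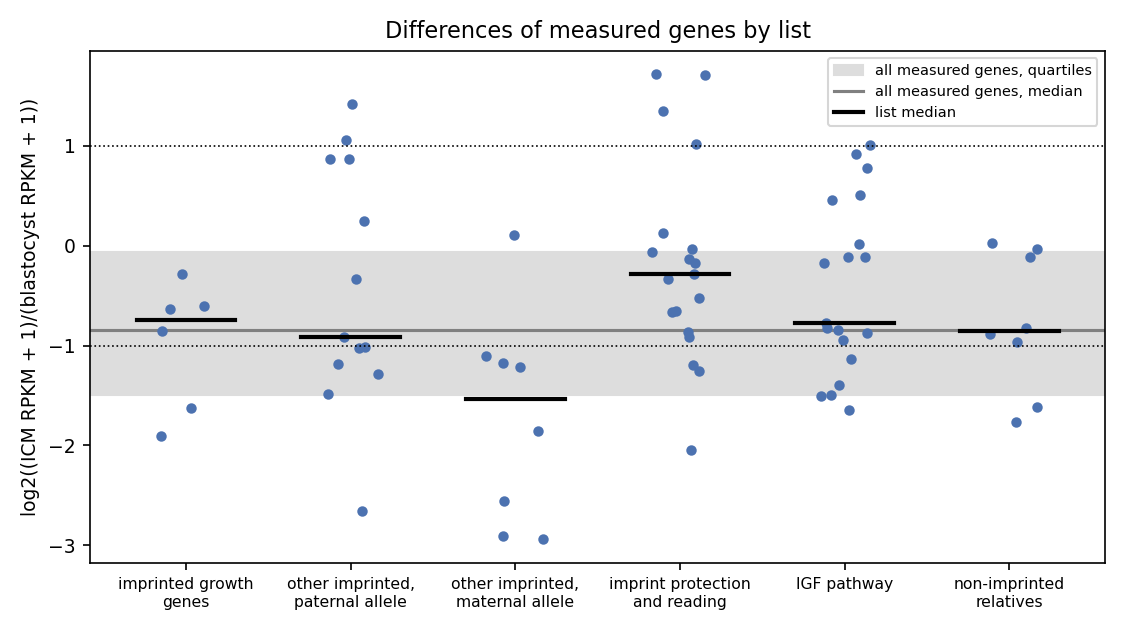
Difference log2((ICM RPKM + 1)/(whole-blastocyst RPKM + 1)) of each measured gene (points) by list, with the list median (black bar), the quartiles of all 8981 measured genes (grey band) and their median of -0.84 (grey line). Medians run from -1.53 in the other maternally expressed genes to -0.28 in the genes of imprint protection, and the dotted lines mark 2-fold.

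Around IGF2, 19 of 30 pathway genes were measured. Of these, 5 were at least 2-fold lower and 1 at least 2-fold higher, where 44.0% and 8.96% of all measured genes were. Relative to the shift none was lower and 5 were higher (20.5% and 16.9% of all). The median of the 19 was -0.78, compared with -0.84 over all measured genes. Igf1r, the receptor that carries the growth signal of IGF2, was low but higher in the ICM, with 138 and 404 reads and an RPKM of 0.401 and 1.39 (ratio 3.47, 2.86 to 4.25). Insr, the insulin receptor gene, was 3.81-fold lower (7.12 and 1.87, interval 3.40 to 4.29). Igf1 had 29 and 0 reads, and the 7 IGF binding protein genes Igfbp1 to Igfbp7 had at most 6 reads in either library. The IGF2 mRNA-binding protein genes were abundant by contrast, Igf2bp2 at 53.4 and 29.3, Igf2bp3 at 26.6 and 13.4 and Igf2bp1 at 9.47 and 8.68. M6pr, the small mannose 6-phosphate receptor and a relative of Igf2r in function, had 31.7 and 17.5 (ratio 0.551, 0.508 to 0.596). Of the enzymes that make the mannose 6-phosphate tag, Gnptab had 13.7 and 7.58 and Nagpa 5.69 and 8.48. The lipid kinase gene Pik3cb (54.1 and 18.6), downstream of the receptors, was lower 2.91-fold (2.71 to 3.12).

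Of the 14 non-imprinted relatives of the 10 genes, 8 were measured, with a median of -0.86. At least 2-fold lower were 2, where 44.0% of all measured genes were, and none was at least 2-fold higher (8.96% of all). The 2 were Plagl2 and Ldoc1, a retrotransposon-derived relative of Peg10 with 124 and 0 reads (at least 27.9-fold lower by the exact limit, 34.8-fold by the floor). Both were measured only through the whole blastocyst, which favours lower values by construction. Phlda1 and Phlda3 were well above their imprinted relative Phlda2, at 27.4 and 14.4 and at 5.96 and 5.79. Grb7 and Grb14 had 20 to 27 reads in either library. Their RPKM values were 1.04 and 1.08 for Grb7 and 1.62 and 1.43 for Grb14, below Grb10 (12.0 and 3.22).

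Of 22 genes that protect or read imprints, 19 were measured, 4 higher and 3 lower by 2-fold or more in the ICM (4 and 1 relative to the shift). Among all measured genes, 8.96% passed that limit upwards and 44.0% downwards (16.9% and 20.5% relative to the shift). The median of the 19 was -0.28. Dppa3, which shields maternal imprints from demethylation in the zygote, had an RPKM of 633.8 and 620.4, and Khdc3 (listed under an older symbol) 59.95 and 53.0. Trim28, the corepressor that ZFP57 recruits, had 44.0 and 90.0 (ratio 2.05, 1.86 to 2.25). Its partner Zfp57 had no read in whole blastocysts and 1 in the ICM, but the length behind its RPKM was 33 bases, so 3 reads are worth an RPKM of 2.02 in whole blastocysts and levels below that could not be seen. Zfp445, which acts beside it, had 5.72 and 5.41. The methyltransferase genes Dnmt3a and Dnmt3l were higher in the ICM (5.26 and 19.6, 12.8 and 44.2), Dnmt3b was not (47.2 and 43.0), and the histone methylation genes Eed (52.96 and 21.7) and Ehmt2 (17.6 and 3.50) were lower.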

How the data were processed

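For each of 2 libraries the authors deposited read counts and RPKM values per gene. Reads were placed on mm9, according to the submitters' processing notes. Neither the aligner nor the annotation is given in the sources used here, nor whether strand was used or how multi-mapping reads were counted. The labels name a kit for small RNA samples, whole-transcriptome cDNA amplification and SOLiD library construction.

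Read counts and RPKM were used as deposited. Differences used a pseudocount of 1, a filter of RPKM 1 or more in at least 1 library and a limit of 1 or -1 on the log2 scale. Ratios carry exact conditional Clopper-Pearson 95% intervals from the read counts, and levels carry exact Poisson intervals. Where a library had no read, a floor of 3 reads was used. Lengths came from GENCODE M21 (GRCm38), as lengths only, since the builds differ. The computations (Python 3.11.15, SciPy 1.17.1, pandas 2.3.3) were tested on simulated Poisson counts. Alternatives covered the pseudocount, the filter and the scaling.

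The members and lists were chosen with earlier results of these data known. Named list genes were those with an RPKM of 5 or more (up to 8 a list, by level), and other list genes were chosen after their values were seen. An older symbol was accepted only if no gene carries it now.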

Additional observations from a re-analysis of the deposited data

How the results depend on the processing

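No paired analysis was possible because there is 1 library per group and the labels carry no replicate numbers. Peg3 was at least 2-fold lower in the ICM under every alternative that kept it (differences from -3.13 to -1.25), but it falls under a filter of RPKM 5. Grb10 ranged from -1.87 to -0.84, short of 2-fold after centring (-0.97), TPM (-0.92), quantile normalization (-0.84) and scaling to listed reads (-0.97). Igf2 ranged from -0.999 to 0.04, Igf2r from -0.63 to 0.32, Peg10 from -0.48 to 0.40 and Plagl1 from -1.86 to -0.19. Of the imprinted growth genes, 1 was at least 2-fold lower under centring, under quantile normalization and with a filter of RPKM 5, compared with 2 as reported and 3 (Plagl1 added) with pseudocounts of 0.1 and 0.5. Under TPM and listed-read scaling the 2 were Peg3 and Plagl1 (-1.01 and -1.19) in place of Grb10. None was at least 2-fold higher under any alternative run. For H19 and Phlda2, with the higher RPKM in the ICM, this was fixed in advance. The filters dropped them. Without a filter, the pseudocount of 1 keeps any gene under an RPKM of 1 in both libraries short of 2-fold.

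Counts that differed by more than 1.5 times follow, first higher and then lower in the ICM. Over all measured genes they were 805 and 3950 as reported, 362 and 2590 with a filter of RPKM 5, 1516 and 1838 after centring, and 1682 and 1893 under quantile normalization. TPM gave 1978 higher and listed-read scaling 1891 higher. Of other paternally expressed genes, 4 were higher with a pseudocount of 0.1, none with a filter of RPKM 5, 4 after centring and 5 under TPM, quantile normalization and listed-read scaling. Of the same genes, 1 was lower after centring and quantile normalization, and 3 under TPM and listed-read scaling. Of other maternally expressed genes, 4 were lower with a filter of RPKM 5, after centring and under quantile normalization, and 1 was higher under TPM. Of the genes of imprint protection, 1 was lower under all 4 scalings. Of the IGF pathway genes, 3 were higher with a pseudocount of 0.1, 2 with 0.5, 0 with a filter of RPKM 5 and 5 under all 4 scalings. Of these, 3 were lower with a filter of RPKM 5, 0 after centring, 2 under TPM, 1 under quantile normalization and 3 under listed-read scaling. Of the non-imprinted relatives, 0 were lower with a filter of RPKM 5 and 1 after centring. Of the neighbours of the 10 genes (7 lower and 1 higher as reported), 1 was lower with a filter of RPKM 5, 2 after centring and 3 under quantile normalization, and 2 were higher under TPM, quantile normalization and listed-read scaling. A filter tests fewer genes by construction. For the scalings the cause was not tested. Counting depth limits H19, Phlda2, Sgce and Mest, whose ratios include no difference.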
